A study of Homo sapiens with 8 samples.

Results

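The mature miRNAs of miR-192, miR-194 and miR-215 were followed in 2 established lines of human colorectal adenocarcinoma, DLD1 and HT29, grown for 6 days as 2D monolayers in plastic flasks or as multicellular spheroids (MCS) in agarose-coated round-bottom wells. The members, miR-192-5p, miR-192-3p, miR-194-5p, miR-194-3p and miR-215-5p, were taken by name and are 5 of the 1780 entries of the deposited count table that name a miRNA. The 4 groups (DLD1 in 2D, DLD1 in MCS, HT29 in 2D and HT29 in MCS) held 2 libraries each, labelled biological replicates 1 and 2, with no genetic change or drug in any of them. DLD1 cells were kept in RPMI and their libraries made with version V3 of the small RNA kit, HT29 cells in DMEM with version V2, so that medium, kit and cell line cannot be told apart. Each line is 1 cancer model, and fewer cells of a type cannot be told apart from less RNA per cell in these whole-culture extracts.

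MiRNAs are short RNAs cut from hairpin precursors, and bases 2 to 8 of the mature strand, the seed, guide them to their target mRNAs. miR-192, miR-194 and miR-215 come from a pair of gene clusters, miR-192 with miR-194-2 and miR-215 with miR-194-1. They are known as miRNAs of differentiated intestinal, liver and kidney epithelium, with HNF1 factors among their transcriptional activators.

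The sequences show which cluster each mature strand can come from. All 5 members were matched by name to RefSeq (table of build GRCh38.p14). They are printed 5′ to 3′ with the seed in capitals:
hsa-miR-192-5p: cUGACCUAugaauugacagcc
hsa-miR-215-5p: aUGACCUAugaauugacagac
hsa-miR-194-5p: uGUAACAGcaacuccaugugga
hsa-miR-192-3p: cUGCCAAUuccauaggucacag
hsa-miR-194-3p: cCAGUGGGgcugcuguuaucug
miR-192-5p and miR-215-5p were identical at 19 of 21 positions and differed by C1A and C20A, counted from 1 at the 5′ end with the miR-192-5p base first. Both substitutions lie outside the seed. UGACCUA was the seed of these 2 of the 2370 mature miRNAs in the table, and the seeds of the other members each occurred once. miR-194-5p is therefore the member whose sequence does not name a cluster, because it is the same in both hairpins. How reads matching several miRNAs were counted is not given. Counts of miR-192-5p and miR-215-5p could therefore hold reads of each other, and their assignment to a cluster rests on the deposited counts.

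The hairpins were located in GRCh37 by their sequence, all on the minus strand. MIR192 lies at chr11:64658609-64658718 and MIR194-2 at chr11:64658827-64658911, with 108 bases between them. Both lie in the lncRNA gene MIR194-2HG on the same strand, where 1 of its 4 annotated transcripts has an exon over them. MIR215 lies at chr1:220291195-220291304 and MIR194-1 at chr1:220291499-220291583, antisense to IARS2 and in its introns (0 of 4 transcripts have an exon there). The hairpins are shown because the arms (capitals) identify the cluster of every member but miR-194-5p:
MIR192: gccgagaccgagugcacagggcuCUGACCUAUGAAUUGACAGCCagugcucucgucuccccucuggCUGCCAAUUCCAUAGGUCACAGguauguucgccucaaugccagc
MIR194-2: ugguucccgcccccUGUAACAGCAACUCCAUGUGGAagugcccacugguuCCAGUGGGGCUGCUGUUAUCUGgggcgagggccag
MIR215: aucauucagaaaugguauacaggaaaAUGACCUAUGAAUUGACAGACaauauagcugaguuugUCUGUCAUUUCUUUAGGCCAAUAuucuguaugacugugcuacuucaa
MIR194-1: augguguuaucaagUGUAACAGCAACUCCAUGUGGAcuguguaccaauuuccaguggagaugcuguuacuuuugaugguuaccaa
miR-194-3p is a product of the chromosome 11 hairpin in this table, so miR-192-5p, miR-192-3p and miR-194-3p report on chromosome 11 and miR-215-5p on chromosome 1. Aligned with gaps, the MIR192 and MIR215 hairpins shared 64 of 116 columns and the MIR194-1 and MIR194-2 hairpins 56 of 87.

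The libraries held 10495634 to 26211524 miRNA counts, and upper quartile scaling factors ranged from 0.746 to 1.167 in DLD1 and from 0.522 to 1.660 in HT29. Replicates lay closer together in DLD1 than in HT29. The median gap between replicates was 0.210 (2D) and 0.332 (MCS) on the log2 scale in DLD1, against 0.621 and 0.711 in HT29. Levels below are CPM (counts-per-million of the library total, that total multiplied by its scaling factor set within each line) and are termed normalized CPM. A miRNA was tested where its mean reached 10 CPM of the library total in the line, and called differentially expressed at a fold change of at least 1.5 with a Benjamini-Hochberg adjusted p-value under 0.05 by edgeR's quasi-likelihood test. Fold changes depended on the scaling: in DLD1 the other scalings moved the median of all miRNAs by -0.12 to -0.46 on the log2 scale relative to upper quartile factors.

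DLD1 cells grown in MCS held more of the chromosome 11 members and of miR-194-5p, whereas miR-215-5p showed no such rise. In DLD1, 143 of 346 miRNAs tested were called (41.3%), 103 up-regulated (29.8%) and 40 down-regulated (11.6%). With TMM factors 76 of 138 calls were up, and with upper quartile factors over the tested miRNAs 49 of 142. Without replicate 2 of 2D the calls fell to 92. Of the 4 members tested, 3 were called, all up-regulated, and these 3 were called under each of the 5 scalings. With the other 4 scalings the adjusted p of miR-192-5p ran from 5.97e-09 to 0.000123 in edgeR's quasi-likelihood test. In a fit of all 8 libraries together, which has 1 spread for both lines, miR-194-5p stayed called (adjusted p = 0.0390) while miR-192-5p (0.0516) and miR-194-3p (0.0985) did not. miR-192-3p stayed below the 10 CPM minimum.

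miR-192-5p, the guide strand of MIR192, stood at 737 and 645 normalized CPM in DLD1 2D and at 3046 and 3960 in MCS. Both MCS libraries lay far above both 2D libraries. The rise was 5.07-fold (log2 fold change 2.34, SE 0.24, adjusted p = 6.15e-19), the 9th largest of the 346 miRNAs tested. Without scaling factors it was 0.0817% and 0.0753% of the library in 2D and 0.316% and 0.295% in MCS, and its rank by abundance moved from 72 and 79 to 48 and 46.

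miR-194-5p, made by both clusters, was the most abundant member in DLD1. It stood at 1471 and 1300 normalized CPM in 2D and at 5321 and 6793 in MCS, again without overlap. The rise was 4.37-fold (log2 fold change 2.13, SE 0.25, adjusted p = 5.28e-15).

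miR-194-3p, the passenger strand of the chromosome 11 hairpin, was rarer, with 21.6 and 29.7 normalized CPM in 2D and 96.5 and 115 in MCS. It rose 4.11-fold (log2 fold change 2.04, SE 0.29, adjusted p = 1.06e-10). miR-192-3p, the passenger strand of MIR192, had 46 and 50 counts in 2D and 142 and 158 in MCS, or 2.62 and 1.68 against 7.59 and 10.4 normalized CPM. Its libraries did not overlap either, and in a fit without the minimum its log2 fold change was 2.07 (SE 0.48, adjusted p = 0.000351). In DLD1, libraries of the cultures did not overlap in 70.8% of the miRNAs tested, 45.4% upward and 25.4% downward.

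miR-215-5p, the chromosome 1 strand with the seed of miR-192-5p, stood at 79.0 and 81.0 normalized CPM in 2D and at 75.9 and 89.7 in MCS. These libraries overlapped. Its log2 fold change was 0.05 (SE 0.27, 95% interval -0.48 to 0.58, adjusted p = 0.886), and its sign was negative under the other scalings, down to -0.41. As a share of the library it was 0.00876% and 0.00945% in 2D against 0.00786% and 0.00669% in MCS. The miR-215-3p strand, not among the members, had 4, 52, 3 and 3 counts in the DLD1 libraries (2D replicates 1 and 2, then MCS) and 0, 1, 4 and 21 in HT29, where a count of 0 allows up to 3 counts, and was too rare to compare.

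**Figure D1:**
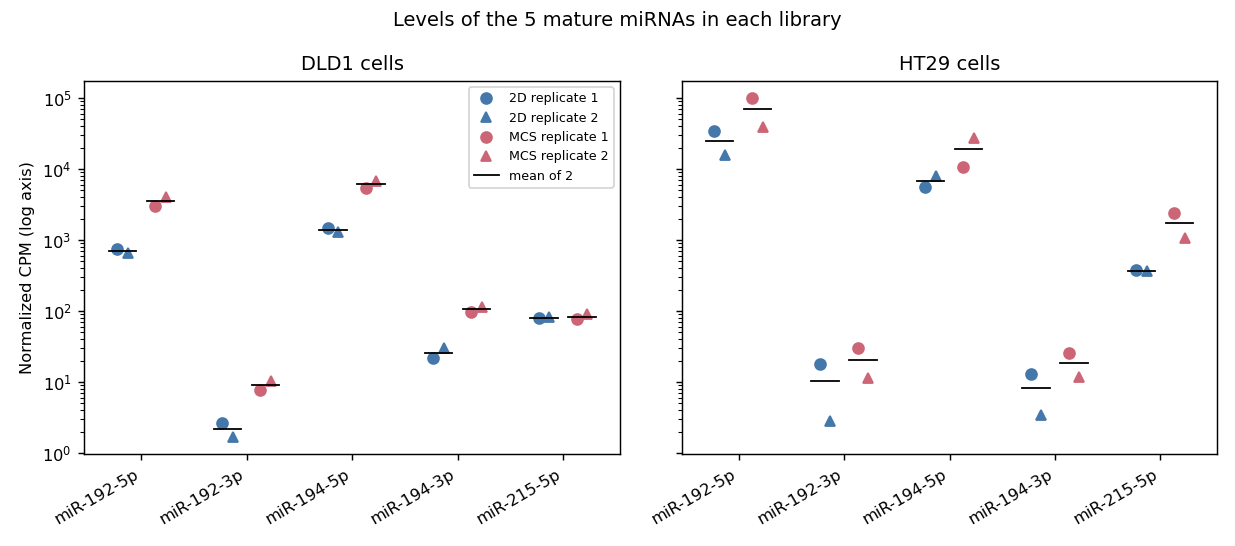
Normalized CPM (log axis) of the 5 mature miRNAs in each library of DLD1 (left) and HT29 (right) cells; circles are replicate 1, triangles replicate 2, blue 2D, red MCS, and bars the mean of 2 libraries. In DLD1 the MCS libraries lie above the 2D libraries for every member but miR-215-5p, whose libraries overlap at 75.9 to 89.7, and in HT29 miR-215-5p moves from 360 and 380 to 1062 and 2399.

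In HT29 cells the point estimates of miR-192-5p, miR-194-5p and miR-215-5p were above 0 in MCS, beside a median of 0.03 over all 301 tested. The passenger strands passed the minimum only through the MCS libraries, and no member was called in the fit by culture alone. The HT29 fit called 0 of 301 miRNAs (0%), with 12 at an unadjusted p under 0.05 in edgeR's quasi-likelihood test and 11 called by DESeq2. The biological coefficient of variation in the fit was 0.521 in HT29 against 0.193 in DLD1. A fit with the replicate number as a block called miR-192-5p, miR-194-5p and miR-215-5p among other miRNAs. Those numbers are shared by label only, and the labels do not say whether they mark a shared culture.

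miR-215-5p had the largest estimate among the members in HT29. It stood at 380 and 360 normalized CPM in 2D and at 2399 and 1062 in MCS, so both MCS libraries exceeded both 2D libraries, although they differed from each other more than 2D replicates did. Its log2 fold change was 2.23 (SE 0.56, 95% interval 0.78 to 3.67), the 5th most positive of the 301, with an adjusted p of 0.642 by edgeR's quasi-likelihood test. DESeq2 called it (log2 fold change 2.18, adjusted p = 0.000128). Without scaling factors it was 0.0199% and 0.0597% of the 2D libraries and 0.178% and 0.165% of the MCS libraries.

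miR-192-5p was among the most abundant miRNAs of HT29 cells, ranked 7 and 7 in the 2D libraries and 3 and 4 in MCS. It stood at 34452 and 15588 normalized CPM in 2D and at 99608 and 39033 in MCS. The cultures did not overlap, but the higher 2D library came close to the lower MCS library, and the log2 fold change was 1.47 (SE 0.80, 95% interval -0.61 to 3.55, adjusted p = 0.977). As a share it made up 1.80% (95% Clopper-Pearson interval 1.79 to 1.81) and 2.59% of the 2D libraries and 7.38% and 6.07% of the MCS libraries; such intervals cover counting error only and are much narrower than the gap between replicates.

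miR-194-5p in HT29 followed the replicate number as well as the culture. It made up 0.292% and 0.788% of the replicate 1 libraries (2D and MCS) and 1.31% and 4.25% of the replicate 2 libraries. By share of the library the cultures therefore overlapped, while in normalized CPM (5595 and 7884 in 2D, 10634 and 27339 in MCS) they did not. The log2 fold change was 1.49 (SE 0.66, 95% interval -0.22 to 3.21, adjusted p = 0.977).

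The passenger strands were close to the detection minimum in HT29. miR-192-3p stood at 18.1 and 2.85 normalized CPM in 2D and 29.9 and 11.4 in MCS, and miR-194-3p at 12.8 and 3.45 in 2D and 25.7 and 11.7 in MCS. For both, the higher 2D library lay above the lower MCS library. By library total alone they did not overlap: miR-192-3p was at 9.43 and 4.73 CPM in 2D and 22.1 and 17.8 in MCS, and miR-194-3p at 6.67 and 5.72 against 19.1 and 18.3. Both strands reached the minimum mean of 10 CPM only through the MCS libraries, where they were higher, so their fits are given as values and not as support: log2 fold changes of 1.01 (SE 1.01) and 1.24 (SE 0.81), both with an adjusted p of 0.977. In HT29, cultures did not overlap in 28.6% of the miRNAs tested, 17.9% upward, and 3 of the 5 members, miR-192-5p, miR-194-5p and miR-215-5p, were among the latter.

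**Figure D2:**
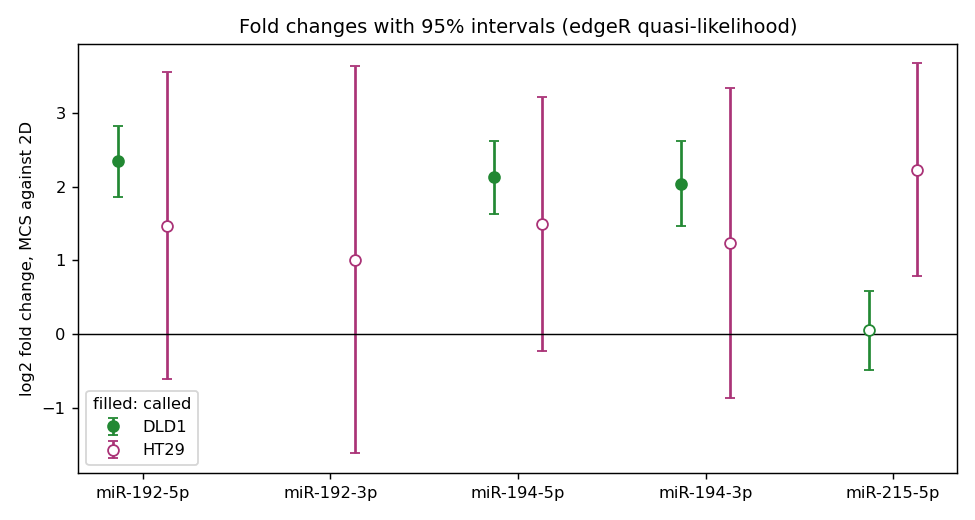
log2 fold change of MCS against 2D for each member in DLD1 (green) and HT29 (purple) from edgeR's quasi-likelihood fit, with bars for the 95% interval and filled points for called miRNAs; miR-192-3p was not tested in DLD1. The DLD1 intervals of miR-192-5p, miR-194-5p and miR-194-3p lie above 0, that of miR-215-5p runs from -0.48 to 0.58 with a sign that other scalings turn, and in HT29 the interval of miR-215-5p alone (0.78 to 3.67) leaves out 0.

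An interaction term fitted to the 8 libraries asked whether HT29 and DLD1 responded differently, and in it 0 of 250 miRNAs were called (0%) by edgeR's quasi-likelihood test, 23 at an unadjusted p under 0.05 and 20 by DESeq2. The HT29 response exceeded the DLD1 response by 2.16 on the log2 scale for miR-215-5p (SE 0.58, 95% interval 0.80 to 3.53, adjusted p = 0.202), the 2nd most positive of the 250 estimates. DESeq2 called this difference (2.26, adjusted p = 0.00127), and so did edgeR with the replicate number as a block. Without replicate 2 of HT29 MCS the estimate was 2.67. For miR-192-5p, miR-194-5p and miR-194-3p the estimates were -0.88 (SE 0.80), -0.67 (SE 0.64) and -0.79 (SE 0.92), none called by either tool. Their intervals reached from -2.77 to 1.02, from -2.19 to 0.86 and from -2.99 to 1.40, so equal and unequal responses both fit within the error. In HT29, miR-194-3p passed the minimum only through the MCS libraries.

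**Figure D3:**
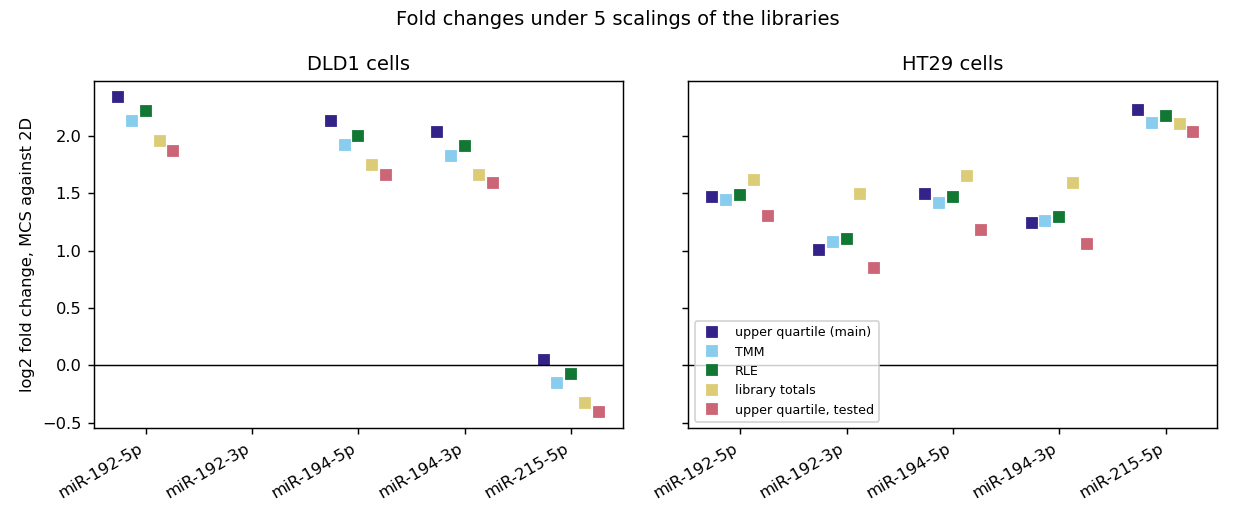
log2 fold change of MCS against 2D for each member in DLD1 (left) and HT29 (right) under 5 scalings of the libraries (colours); miR-192-3p was not tested in DLD1. In DLD1 miR-215-5p changes sign between upper quartile factors (0.05) and the other scalings (down to -0.41), while the other members and all HT29 values stay above 0. In HT29, miR-192-3p and miR-194-3p passed the minimum only through the MCS libraries, so their sign is not support.

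The clusters were also compared by count ratios within each library, which need no scaling. Mature strands of 21 or 22 bases were compared directly. In DLD1, miR-192-5p outnumbered miR-215-5p 9.32 and 7.97 times in 2D and 40.1 and 44.2 times in MCS. The mean log2 ratio of miR-215-5p to miR-192-5p was -3.11 ± 0.16 (SD, n = 2) in 2D and -5.40 ± 0.10 (SD, n = 2) in MCS, a change of -2.29, so that miR-215-5p fell 4.89-fold relative to miR-192-5p. miR-215-5p thereby went from 9.69% and 11.2% of the reads with the shared seed to 2.43% and 2.21%.

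In HT29 the same ratio went the other way. miR-192-5p outnumbered miR-215-5p 90.6 and 43.3 times in 2D and 41.5 and 36.8 times in MCS. The mean log2 ratio was -5.97 ± 0.75 (SD, n = 2) in 2D and -5.29 ± 0.12 (SD, n = 2) in MCS, a change of 0.68, which is smaller than the spread between the 2D replicates. miR-215-5p made up 1.09% and 2.26% of the shared-seed reads in 2D and 2.35% and 2.65% in MCS. At such shares, as in DLD1 MCS, miR-192-5p reads counted as miR-215-5p could change the ratio, and this was not tested.

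The smallest p that the 2-sided exact permutation test can reach within 1 line of this design is 0.333, and that was the value for this ratio in DLD1 and in HT29. Averaged over the lines the change was -0.80 (exact permutation p = 0.333, adjusted over 6 ratios 0.933). The change in HT29 exceeded that in DLD1 by 2.97 (exact permutation p = 0.0556, the smallest that 36 arrangements allow, adjusted over 6 ratios 0.333). This difference was tested after the data were seen. Where the cultures separate fully and in opposite directions, as here, this smallest p is always reached.

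Ratios within the chromosome 11 cluster moved less. In DLD1 the log2 ratio of miR-194-3p to miR-192-5p changed by -0.28 and that of miR-192-3p to miR-192-5p by -0.26 from 2D to MCS, both less than the gap between the 2D replicates. In HT29 the changes were -0.04 and -0.06. Over both lines the exact permutation p was 0.5 and 0.778 (adjusted 0.933 for both). The passenger strand miR-194-3p changed by -0.07 in DLD1 and 0.03 in HT29 relative to miR-194-5p (exact permutation p = 0.944).

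miR-194-5p, which both clusters make, was set against the sum of miR-192-5p and miR-215-5p. In DLD1 it was 180% and 179% of that sum in 2D and 170% and 168% in MCS. In HT29 it was 16.1% and 49.4% in 2D and 10.4% and 68.2% in MCS, where the replicates differed more than the cultures. The change averaged over the lines was -0.08 on the log2 scale (exact permutation p = 0.722, adjusted 0.933).

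**Figure D4:**
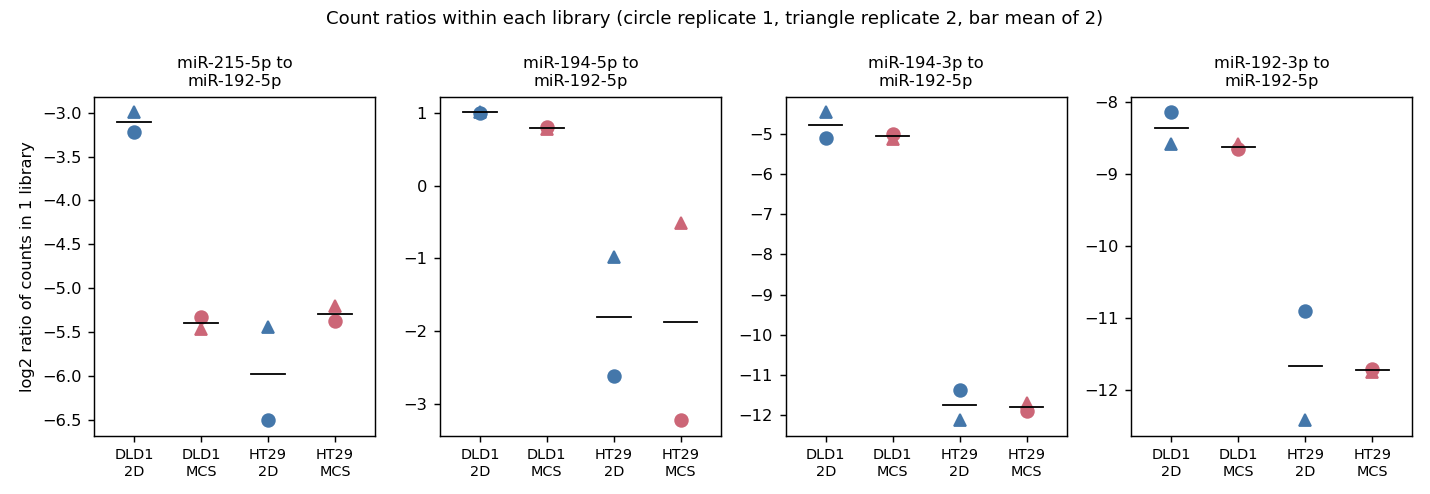
log2 ratio of counts within each library for 4 pairs of members, by line and culture; circles are replicate 1, triangles replicate 2, and bars the mean of 2 libraries, with a vertical axis of its own in each panel. The ratio of miR-215-5p to miR-192-5p falls from -3.11 to -5.40 in DLD1 and stands at -5.97 and -5.29 in HT29, and the other panels differ more between the lines than between the cultures.

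miR-192-5p was much higher in HT29 than in DLD1 cells. In the fit of all 8 libraries, HT29 exceeded DLD1 in 2D by 5.95 on the log2 scale (SE 0.70, 61.8-fold, adjusted p = 0.00119), where 106 of 250 miRNAs were called (42.4%), 26% higher and 16.4% lower in HT29. In MCS it exceeded DLD1 by 5.07 (SE 0.67, adjusted p = 0.00184), with 42.8% of miRNAs called, 24.4% higher and 18.4% lower in HT29. These differences moved with single HT29 libraries, to 5.27 and 6.39 without replicates 1 and 2 of 2D and to 4.24 and 5.59 without replicates 1 and 2 of MCS, and stayed called. miR-194-5p was higher in HT29 by 3.06 in 2D (SE 0.49, adjusted p = 0.00372) and 2.39 in MCS (SE 0.48, adjusted p = 0.00758), and this call was lost with library totals alone in both cultures and without either DLD1 MCS library in MCS. Without replicates 1 and 2 of HT29 MCS its difference in MCS was 2.93 and 1.57, called in both.

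miR-215-5p was higher in HT29 by 2.98 in 2D (SE 0.43, adjusted p = 0.00273) and by 5.14 in MCS (SE 0.48, 35.4-fold, adjusted p = 0.000718), the latter 4.44 and 5.62 without replicates 1 and 2 of HT29 MCS and called in both. miR-194-3p had the opposite sign, -0.95 in 2D (SE 0.66, adjusted p = 0.300) and -1.74 in MCS (SE 0.66, adjusted p = 0.0735), and was not called. miR-194-3p passed the minimum in HT29 only through the MCS libraries, with 6.67 and 5.72 CPM of the library total in HT29 2D. Its line differences are therefore given as values and not as support. Its call depended on the setting: in 2D it was called with library totals alone and without replicate 1 of HT29 2D (range -2.13 to -0.27 with 1 library left out), and in MCS with library totals alone, TMM factors, DESeq2, no filter and without either HT29 2D library (range -2.41 to -1.28). The passenger strands were the rarest relative to their partners in HT29: miR-194-3p was 1.47% to 2.28% of miR-194-5p in DLD1 and 0.0430% to 0.242% in HT29, and miR-192-3p was 0.249% to 0.356% of miR-192-5p in DLD1 and 0.0183% to 0.0524% in HT29. Kit version and line cannot be told apart in these comparisons.

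Together the 5 members made up 0.256% and 0.240% of the DLD1 2D libraries, 0.885% and 0.818% of the DLD1 MCS libraries, 2.11% and 3.96% of the HT29 2D libraries and 8.36% and 10.5% of the HT29 MCS libraries. In both lines the MCS libraries lay above the 2D libraries. In HT29 miR-192-5p supplied most of these counts, and in DLD1 miR-194-5p.

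As a description over the 8 libraries, levels were centred on each line's mean and correlated as log2 normalized CPM plus 1 across the 250 miRNAs tested in both lines. miR-192-5p was most like miR-194-3p (Pearson r = 0.974), miR-30b-5p (0.959) and miR-181a-2-3p (0.945). miR-194-3p passed the minimum in HT29 only through the MCS libraries, where it was higher, so its r is given as a value only. miR-194-5p was most like miR-181b-5p (0.982), miR-3074-5p (0.968) and miR-181a-5p (0.961), and its r with miR-192-5p was 0.698. miR-215-5p was most like miR-181d-5p (0.898), miR-155-5p (0.897) and miR-378c (0.894), with 0.582 to miR-192-5p and 0.351 to miR-194-5p. The points share libraries and scaling factors, so no p is given.

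Other miRNAs known from intestinal and other epithelia moved in both directions in DLD1. Of 14 listed, 12 were tested, 7 were called up and 1 down, beside 29.8% up and 11.6% down over all miRNAs tested, with a median log2 fold change of 0.82 against 0.23 over all miRNAs tested. miR-203a was listed under that name, while the counts hold it as miR-203a-3p, so it was left out of the 12. miR-200a-3p, of the family that keeps cells epithelial, rose by 1.28 (adjusted p = 2.36e-06). Among the listed miRNAs known from endocrine cells, miR-375 rose by 1.24 (adjusted p = 3.95e-06) and miR-7-5p fell by 1.64 (adjusted p = 9.73e-11). In HT29, 0 of the 12 were called, with a median of 0.39 against 0.03, and miR-375 had 1.80 (adjusted p = 0.642). The list summed to 274689 to 376108 CPM of the library total in DLD1 and 261767 to 533922 in HT29. In HT29 the sum differed mainly by replicate. There miR-10a-5p, in this list, held 4959659 of the 10495634 counts of replicate 1 of 2D. In normalized CPM, which are not on the scale of these sums, it stood at 904671 and 63720 in 2D. In MCS it stood at 519885 and 42259 (replicates 1 and 2).

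Markers of blood, muscle, stroma and liver were rare. The 9 listed summed to 42.9 and 17.8 CPM of the library total in DLD1 2D and 69.7 and 55.5 in DLD1 MCS. In HT29 they summed to 62.6 and 79.0 in 2D and 151 and 272 in MCS. In DLD1 the only one tested, miR-142-3p of blood cells, was called up (1.49, adjusted p = 2.51e-05), and in HT29 0 of 3 tested were called. Their log2 fold changes in HT29 were 2.31 (miR-150-5p, adjusted p = 0.553 by edgeR's quasi-likelihood test), 1.93 (miR-142-3p) and 0.37 (miR-1-3p). miR-150-5p lay close to the minimum in HT29 2D, with 12.0 and 6.83 normalized CPM. These sums were higher in MCS than in 2D in both lines, as was the share of the 5 members together, and their part in the results was not tested. miR-122-5p, the defining miRNA of hepatocytes, which also contain miR-192 and miR-194, had at most 18 counts in any library.

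A sequence upstream of the chromosome 11 host gene was read for the site of HNF1. The RefSeq promoter entry of MIR194-2HG, from 250 bases before to 50 after its start, lies at chr11:64660872-64661171 (GRCh37, minus strand). It is printed with the match in capitals:
MIR194-2HG: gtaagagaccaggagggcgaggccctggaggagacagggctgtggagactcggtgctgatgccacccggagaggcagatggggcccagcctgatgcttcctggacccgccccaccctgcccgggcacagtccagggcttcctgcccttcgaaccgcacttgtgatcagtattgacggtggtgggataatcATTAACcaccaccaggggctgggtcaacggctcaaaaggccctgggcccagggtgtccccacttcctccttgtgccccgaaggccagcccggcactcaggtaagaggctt
GTTAAT, an arm of the palindromic HNF1 site, was searched on both strands and had 1 match, as ATTAAC at -60 from the start. At least 1 match occurred in 6.88% of 35116 promoters of this length. CAAAGT, a core of HNF4 sites, had 0 matches here and occurred in 11.9% of promoters. The motifs were chosen after this promoter had been read, and the miR-215 cluster has no entry in the table.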

How the data were processed

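Small RNA libraries of DLD1 and HT29 cells (2 per line and culture) were grouped by the submitters' labels. The authors trimmed adapters and random bases with Cutadapt, aligned to GRCh37 with Bowtie2 and to miRBase mature miRNAs, and deposited raw counts per mature miRNA, not normalized or pooled. The submitters' processing notes name CASAVA 1.8.3, cutadapt 1.11, Bowtie2 2.1.0 and edgeR 3.4.2. The paper's methods give other versions of Cutadapt and Bowtie2. How reads matching several miRNAs were counted is not given in the sources used here, so miR-192-5p and miR-215-5p could hold reads of each other. In 1 library, 2590 counts named no miRNA and were left out (15 entries, 0 counts elsewhere).

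Counts were analysed with edgeR 4.0.16 (quasi-likelihood test) in R 4.3.3, with upper quartile factors over all miRNAs with at least 1 count, a mean of at least 10 CPM in the line (in both lines for fits of all 8 libraries), calls at 1.5-fold or more in either direction, and p-values adjusted over all miRNAs tested by Benjamini-Hochberg (threshold 0.05). The interaction had no fold minimum. Ratios were tested by 2-sided exact permutation within line. Whether replicates came from separate cultures rests on the label "biological replicate", so p-values measure the spread between these libraries. Alternatives were other scalings, DESeq2 1.42.0, other filters, edgeR's exact test, the replicate number as a block, 1 fit of all libraries, and each library left out. Steps were tested on simulated data.

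The named miRNAs are the 5 members, the other strand of their hairpins, the 3 most correlated miRNAs, and the listed miRNAs with the largest change. The members and lists were chosen with earlier results of these data known, and support nothing independently. One further list of miRNAs is not reported here.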

Additional observations from a re-analysis of the deposited data

Results flagged for a closer look

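The change in the log2 ratio of miR-215-5p to miR-192-5p from 2D to MCS was -2.29 in DLD1 and 0.68 in HT29, so that the HT29 change exceeded the DLD1 change by 2.97. It stood out because both DLD1 MCS libraries lay below both DLD1 2D libraries, whereas both HT29 MCS libraries lay above both HT29 2D libraries. The exact permutation p of the difference was 0.0556, the smallest this design allows, and 0.333 after adjustment over 6 ratios. Separation in opposite directions, the reason for the flag, always gives this p, so it is no further support. Leaving out 1 library at a time kept the difference between 2.44 and 3.50.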

How the results depend on the processing

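In DLD1, the log2 fold changes of miR-192-5p and miR-194-5p kept their direction and call under every scaling, filter and test tried, with 1 exception. They also kept them with each library left out (2.08 to 2.35 and 1.88 to 2.13). The exception was 1 fit of all 8 libraries, where miR-192-5p had 2.32 and lost its call (adjusted p = 0.0516 by edgeR's quasi-likelihood test). That fit called 30 of 346 miRNAs and 1 member. miR-215-5p in DLD1 turned negative with TMM (-0.16), RLE (-0.0727), library totals (-0.32), upper quartile factors over the tested miRNAs (-0.41), DESeq2 (-0.0728) and without 1 library (-0.14 to -0.0052), never past the threshold; these scalings moved the median of all miRNAs by -0.21, -0.12, -0.37, -0.46 and -0.12. Leaving out 1 library gave 92 to 124 calls in DLD1.

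In HT29, 11 of 301 miRNAs were called by DESeq2 (1 member, miR-215-5p, 2.18) and 5 by edgeR's exact test, against 0. With no filter, which tests more miRNAs, 15 were called. The members' log2 fold changes without 1 library ranged from 0.61 to 2.15 (miR-192-5p), 0.63 to 2.00 (miR-194-5p), 1.49 to 2.67 (miR-215-5p), 0.10 to 2.84 (miR-192-3p) and 0.46 to 2.43 (miR-194-3p). Replicate numbers are shared by label only. Deviations of same-numbered libraries from the culture means correlated at 0.321 in DLD1 (346 miRNAs) and 0.789 in HT29 (301 miRNAs). The fit with the replicate number as a block called 47 of 301 miRNAs in HT29, all 5 members among them. By edgeR's quasi-likelihood test these were miR-215-5p 2.11 (adjusted p = 1.85e-07), miR-192-5p 1.43 (0.000310), miR-194-5p 1.36 (0.00103), miR-194-3p 1.40 and miR-192-3p 1.37. The last 2 passed the 10 CPM minimum only through the MCS libraries. In DLD1 the block called 139 of 346 miRNAs and 3 members.

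For the interaction, TMM factors gave 1 call among 250 miRNAs and DESeq2 20 (1 member, miR-215-5p, 2.26). The replicate block gave 40 (1 member, miR-215-5p, 2.04, adjusted p = 0.00501 by edgeR's quasi-likelihood test). No filter, which tests more miRNAs, gave 5. With 1 library left out, miR-215-5p ranged from 1.5001 to 2.67, the latter without replicate 2 of HT29 MCS. The interaction of miR-194-3p was 0.41 without replicate 1 of HT29 2D (range -1.53 to 0.41).

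For HT29 against DLD1, library totals gave 62 calls in 2D and 53 in MCS, no filter 350 and 348 (5 members in MCS), and leaving out 1 library 40 to 122 in 2D (42 and 40 without replicates 1 and 2 of DLD1 2D) and 57 to 126 in MCS (57 and 58 without replicates 1 and 2 of DLD1 MCS), with 2 to 4 members called in MCS. The cause of these changes was not tested. With 2 libraries per group, precision is set by the spread between replicates and not by depth.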
